A study of Mus musculus with 6 samples.

Results

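Nuclear-encoded genes of the mitochondrial respiratory chain were followed through 3 culture states of mouse embryonic stem cells. They were chosen by symbol: Nduf, Sdha to Sdhd, Uqcr, Cox4 to Cox8 and Atp5, with pseudogenes left out, which gave 91 of 19532 gene rows. Complex I had 36 genes, its Ndufaf assembly factors 7, complex II 4, complex III 8, complex IV 19 and complex V 17. Ndufa4 and Ndufa4l2 were counted with complex IV, since Ndufa4 is now regarded as a cytochrome c oxidase subunit. Transcripts of single cells had been counted by SORT-seq, a plate-based method that tags the 3' end of each captured transcript with a molecular identifier (UMI), so a count stands for a molecule and does not grow with gene length. The cells were R1 and IB10, both established lines, with 1 library of 188 wells for each line in each condition (6 libraries). Every culture held N2B27 medium and LIF. LIF_2i added 3 µM CHIR99021, an inhibitor of GSK3, and 0.1 µM PD325901, an inhibitor of MEK, which keeps cells in the naive state. Rosette_LIM had 0.1 µM PD325901 and 2 µM IWP2, an inhibitor of WNT secretion, for 6 passages in R1 and 5 in IB10. Primed_4d lasted 4 days, with 2 µM IWP2, Activin A at 20 ng/ml and FGF2 at 12 ng/ml. R1 was at passage 24 and IB10 at passage 28, except in rosette_LIM (passages 28 and 33), so passage and the rosette_LIM condition cannot be told apart.

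The respiratory chain sits in the inner mitochondrial membrane. Complex I (NADH dehydrogenase) and complex II (succinate dehydrogenase) pass electrons to ubiquinone, complex III (the cytochrome bc1 complex) passes them on to cytochrome c, and complex IV (cytochrome c oxidase) reduces oxygen. Complexes I, III and IV pump protons, and complex V, the ATP synthase, uses the gradient to make ATP. Most subunits are encoded in the nucleus and a small set in mitochondrial DNA. Naive embryonic stem cells are known to respire and to use glycolysis, while primed cells rely more on glycolysis, and low complex IV activity of primed cells has been described.

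The libraries held 4675388 to 7806882 UMIs. Wells under 6000 UMIs numbered 84 of 188 in R1 primed_4d and 4 to 38 in the others. Marker sums set primed_4d apart from the other states. The 6 naive markers summed to 2439 to 2807 CPM in LIF_2i and rosette_LIM and to 334 to 397 CPM in primed_4d. The 5 primed markers summed to 1259 to 1281 CPM in primed_4d against 118 to 154 CPM elsewhere. The sums of rosette_LIM and LIF_2i overlapped. Between these states, edgeR called the naive marker Tfcp2l1 lower in rosette_LIM. It called 2 primed markers higher there (limma 1) and 1 lower, where 3.17% and 2.34% of all genes were. CPM is a gene's count relative to the TMM-scaled library total, in the usual counts-per-million unit. Primitive endoderm markers (5 of 5 found, 3.59 to 7.12 CPM summed), trophectoderm markers (5 of 5, 13.0 to 21.8 CPM) and 2-cell-like markers (5 of 5, 9.99 to 29.2 CPM) were low in each library. Of 3 trophectoderm markers tested, edgeR called 1 higher and 2 lower in primed_4d than in LIF_2i (DESeq2 1 and 2). Against rosette_LIM it also called 1 higher and 2 lower (DESeq2 1 and 1). The 5 feeder fibroblast markers summed to 240 to 241 CPM in LIF_2i, 285 to 313 in rosette_LIM and 160 to 197 in primed_4d. Nearly all of that was Vim, at 234 ± 0.46, 293 ± 23.8 and 167 ± 26.6 CPM (SD, n = 2), while Postn was at 0 in rosette_LIM and primed_4d and Col1a2 at 0 in LIF_2i and rosette_LIM. Of 3 feeder markers with enough counts to test, edgeR called Vim lower and Thy1 higher in primed_4d than in both other states. Thy1 was at 4.57 and 4.86 CPM in LIF_2i (R1 and IB10), 6.60 and 1.95 in rosette_LIM, then 9.18 and 10.2 in primed_4d, and DESeq2 called 0 markers higher. The order of the feeder list's sums is that of the respiratory chain sums below, and its part in them was not tested. In such sums over wells, fewer expressing cells and less RNA per cell cannot be told apart.

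Relative to each library's total, the respiratory chain genes together were highest in rosette_LIM and lowest in primed_4d. Pairs of values here and below are R1 first and IB10 second. Their summed level was 19591 and 20502 CPM in LIF_2i, 22638 and 22579 CPM in rosette_LIM, then 19114 and 18879 CPM in primed_4d. Both rosette_LIM libraries lay above the other 4, and both primed_4d libraries below them. The mean in rosette_LIM was 1.13 times that in LIF_2i, and that in primed_4d was 0.840 times that in rosette_LIM. These sums and those of the complexes are descriptions, with no test.

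Single wells showed the same order of medians. Among wells with 6000 UMIs or more, the genes made up a median of 1.95% and 2.04% of a well's counts in LIF_2i, 2.21% and 2.22% in rosette_LIM, then 1.93% and 1.88% in primed_4d. Wells within a library spread more widely than these medians, the middle 80% of R1 LIF_2i wells running from 1.69% to 2.28%. Wells are not replicates of a condition and were not tested.

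**Figure D1:**
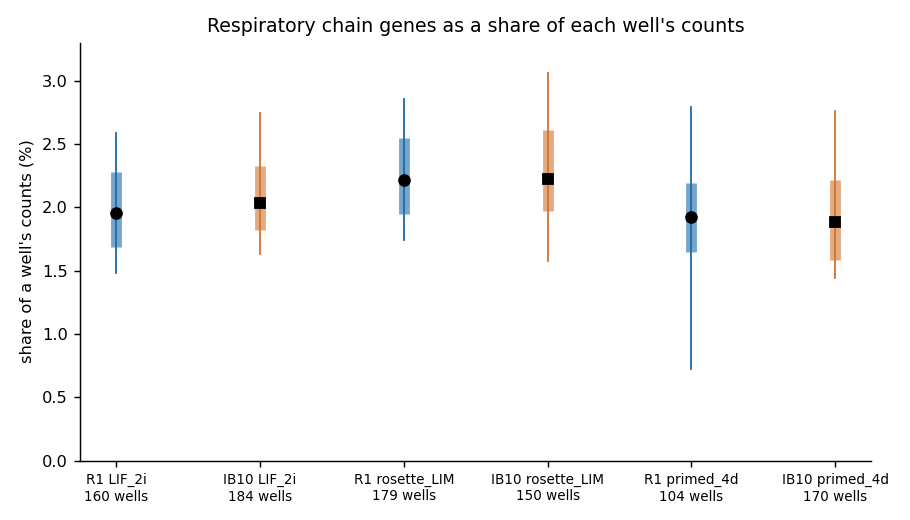
Share of a well's counts that fell on the 91 respiratory chain genes (%, vertical axis) for wells with 6000 UMIs or more in each library; symbols are medians (circle R1, square IB10), thick bars run from the 10th to the 90th percentile and thin lines from the lowest to the highest well. The medians of both rosette_LIM libraries (2.21% and 2.22%) lie above those of the other 4 libraries, and the ranges overlap.

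By complex, the ratio of primed_4d to rosette_LIM ran from 0.782 to 0.858, with complex IV lowest in these pooled sums. Complex IV summed to 4634 and 4792 CPM in LIF_2i, 5320 and 5325 in rosette_LIM, then 4282 and 4038 in primed_4d, a ratio of 0.782. A large part of that fall came from 1 of its 19 genes. Cox5a went from a mean of 825 CPM in rosette_LIM to 387 in primed_4d, while the complex went from 5323 to 4160. Complex I went from 5270 and 5554 CPM to 6079 and 6040 and then to 5198 and 5164, a ratio of 0.855 between the last 2 conditions. Complex V went from 7152 and 7548 CPM to 8497 and 8526 and then to 7248 and 7360, and complex III from 1791 and 1851 to 1941 and 1910 and then to 1686 and 1596. Complex II had 512 and 498, 584 and 559, and 476 and 481 CPM. In these pooled sums both rosette_LIM libraries were above every other library in each of the 5 complexes. With equal weight for each well this held for complexes I, IV and V only: IB10 rosette_LIM was then at 1829 CPM for complex III, against 1839 and 1849.8 in LIF_2i, and at 537 CPM for complex II, against 543 in R1 LIF_2i. The ratio of primed_4d to rosette_LIM was then lowest for complex II, at 0.732, with complex IV at 0.789. The assembly factors did not follow this order, with 231 and 260 CPM in LIF_2i, 217 and 219 in rosette_LIM, then 225 and 241 in primed_4d.

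**Figure D2:**
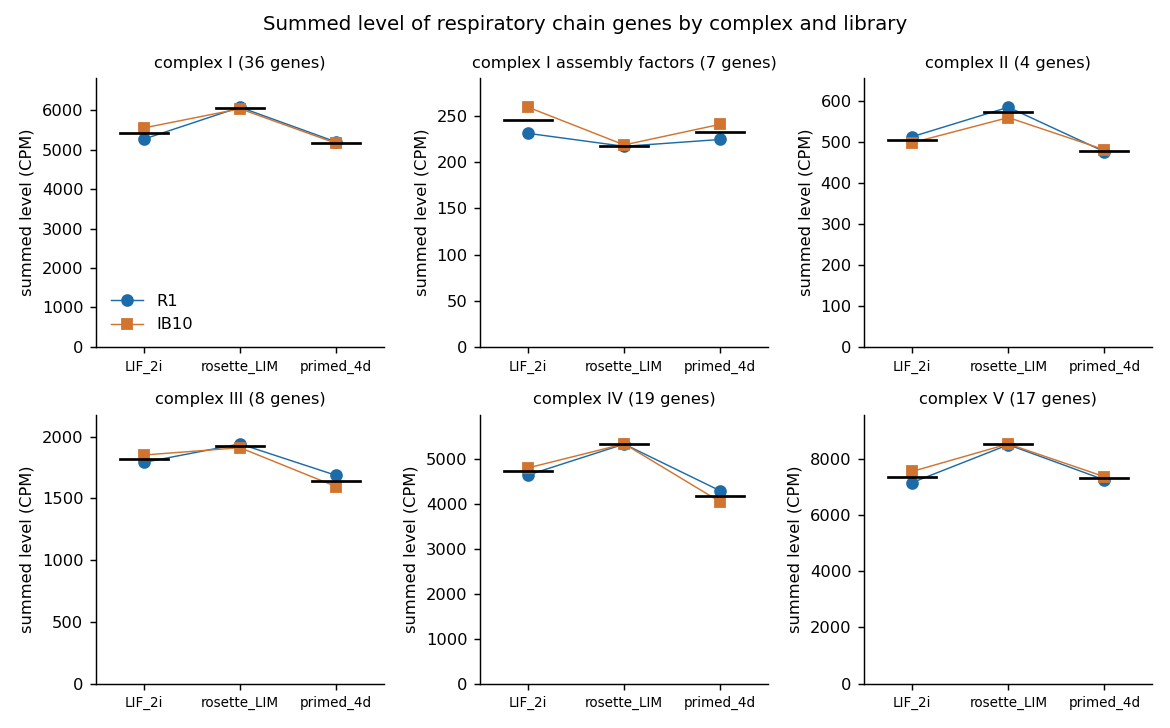
Summed level (CPM, linear axis from 0) of the genes of each complex in every library; circles are R1, squares IB10, thin lines join the libraries of a line and black bars are means of 2 libraries. In these pooled sums complexes I to V are highest in rosette_LIM, and the complex I assembly factors are not.

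Rosette_LIM against LIF_2i compares 2 cultures with MEK inhibited, one with the GSK3 inhibitor and the other with WNT secretion blocked. Of the 91 genes, 88 had enough counts for edgeR's quasi-likelihood test. It called 2 of them higher, Sdhb and Atp5b, at an adjusted p under 0.05. Of all 12098 genes tested, 3.17% were called higher. It called 0 lower, against 2.34% of all genes; 1 was lower at an unadjusted p under 0.05, and DESeq2 and limma called 0 as well. Most estimates were small and positive: 72 of 88 were above 0, against 50.3% of all genes, and the median was 0.14 on the log2 scale against 0.00 for all genes. In both lines separately, 59 of 88 (67.0%) were higher in rosette_LIM, against 32.7% of all genes. The count of 2 rests on single libraries: it was 0 without the R1 or without the IB10 LIF_2i library, 4 without either rosette_LIM library, and 6 and 8 without the R1 and the IB10 primed_4d library. Without the cell line as a block it was 0.

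Primed_4d was compared with both other states, and the 2 comparisons share the primed_4d libraries. Against rosette_LIM, 29 of 88 genes (32.95%) were lower and 4 (4.55%) higher, where 19.0% and 17.1% of all genes were. The median of the 88 was -0.17 against -0.00 for all genes, and 55 of 88 (62.5%) were lower in both lines, against 38.2% of all genes. Against LIF_2i, 18 of 88 (20.5%) were lower and 6 (6.82%) higher, where 19.6% and 18.3% of all genes were, so the share of lower genes is close to the background and that of higher genes under it. The median there was -0.04. Every gene called in either comparison moved the same way in both lines. This follows largely from the calling, since a gene that moves oppositely in the lines can hardly pass.

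The lower calls were spread over the complexes. Against rosette_LIM they were 9 of 35 tested genes of complex I, 1 of 7 assembly factors, 1 of 4 in complex II, 4 of 8 in complex III, 8 of 17 in complex IV and 6 of 17 in complex V. Against LIF_2i they were 5, 2, 1, 3, 4 and 3. The count of 29 was 19 without the IB10 primed_4d library and 23 to 27 without any other. The count of 18 was 10 and 6 without the R1 and the IB10 LIF_2i library and 11 without the IB10 primed_4d library. With wells under 6000 UMIs left out, the counts were 29 and 17. The counts of genes called higher were less stable: the 6 against LIF_2i were 2 and 0 without the R1 and the IB10 LIF_2i library, 3 without the R1 primed_4d library and 3 with DESeq2. The 4 against rosette_LIM were 1 without either LIF_2i library, 2 without either primed_4d library, 2 without the IB10 rosette_LIM library, 2 without the line block and 1 with DESeq2.

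**Figure D3:**
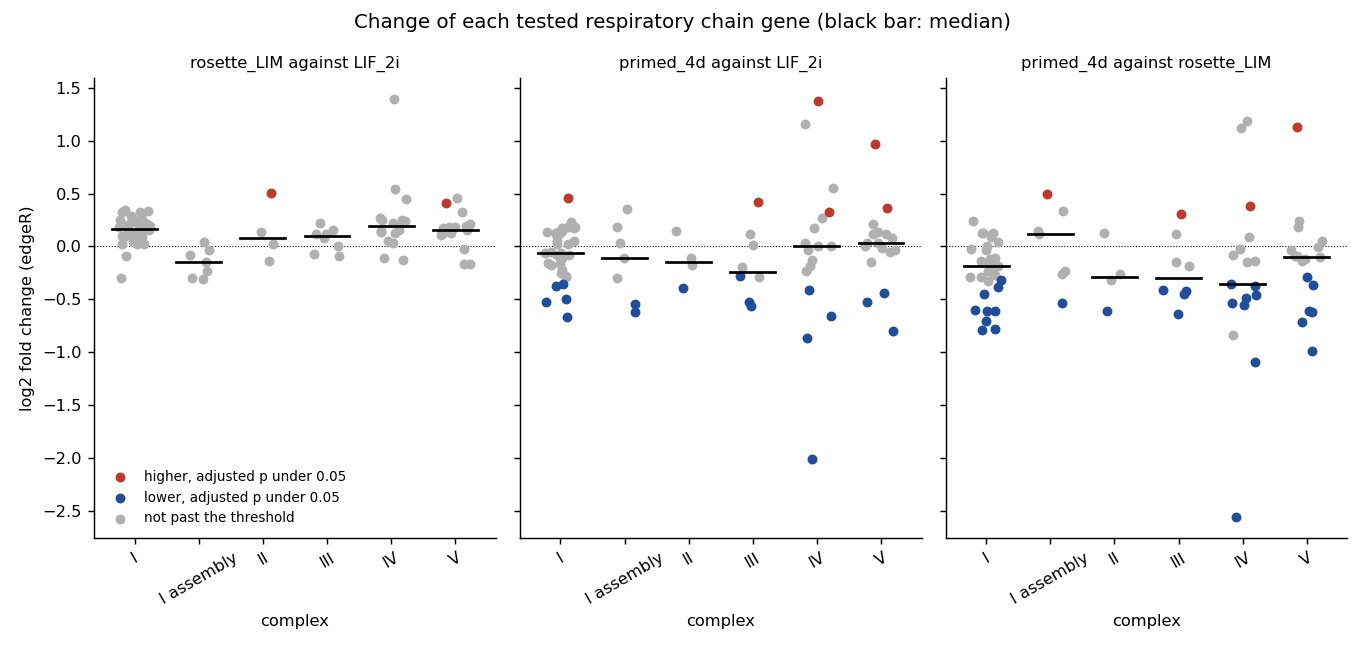
Log2 fold change of each of the 88 tested genes (vertical axis) by complex (horizontal axis) in 3 comparisons; red and blue points passed an edgeR adjusted p of 0.05 as higher or lower, grey points did not, and black bars are medians. Most points of rosette_LIM against LIF_2i lie just above 0 and few are coloured; in primed_4d against rosette_LIM 29 points are blue and 4 red, the lowest being Cox7a1 at -2.55.

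Complex I has 7 nuclear core subunits, which hold its flavin and iron-sulphur clusters, and many accessory subunits around them. Its genes were counted by these roles after their values were seen. Of the 7, 1 was lower in primed_4d than in rosette_LIM and 1 than in LIF_2i, where 19.0% and 19.6% of all genes were. These counts are near those shares. In both comparisons the gene was Ndufv2, which carries an iron-sulphur cluster of the NADH-oxidising arm. It was at 259 and 279 CPM in LIF_2i, 321 and 313 in rosette_LIM, then 197 and 218 in primed_4d. Both primed_4d libraries were under the other 4, and the change from rosette_LIM was -0.61 ± 0.11 (log2 ± SE, edgeR adjusted p = 0.000471). The change from LIF_2i was -0.38 ± 0.11 (edgeR adjusted p = 0.0126), a call lost without either LIF_2i library and without R1 primed_4d. Ndufs1, the largest core subunit, did not pass in any comparison, with 146 and 159, 156 and 158, and 179 and 164 CPM.

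Among 28 tested accessory subunits of complex I, 8 were lower in primed_4d than in rosette_LIM and 4 lower than in LIF_2i, where 19.0% and 19.6% of all genes were; the second count is a smaller share than that background. Ndufb4, a subunit of the membrane arm, was at 197 and 221 CPM in LIF_2i, 224 and 232 in rosette_LIM, then 135 and 128 in primed_4d. It lay lower in both primed_4d libraries than in any other, by 0.79 ± 0.11 on the log2 scale against rosette_LIM (edgeR adjusted p = 8.03e-05) and 0.67 ± 0.11 against LIF_2i (edgeR adjusted p = 0.00031). Ndufa11, which bridges complex I to its partners in supercomplexes, had 170 and 174, 200 and 189, and 117 and 123 CPM (-0.70 ± 0.11 against rosette_LIM, edgeR adjusted p = 0.000227). Ndufa3 had 86.0 and 91.5, 93.6 and 124, and 68.9 and 57.1 CPM (-0.78 ± 0.15 against rosette_LIM, edgeR adjusted p = 0.00109). For both genes the primed_4d libraries were below the lowest of the other 4. Ndufb5, Ndufb8, Ndufb10, Ndufc1 and Ndufa6 were the other 5, with changes between -0.61 and -0.32, of which Ndufb10 (edgeR adjusted p = 0.0485) was lost under 11 of 14 other settings, Ndufb8 without IB10 rosette_LIM or IB10 primed_4d, and Ndufa6 without R1 rosette_LIM or R1 primed_4d. Against LIF_2i, Ndufa1, an X-linked membrane-arm subunit, was higher. Ndufa1 had 116 and 110 CPM in LIF_2i, 153 and 130 in rosette_LIM, then 156 and 153 in primed_4d (0.46 ± 0.11, edgeR adjusted p = 0.00581), a call lost without either LIF_2i library and without IB10 primed_4d.

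Ndufa12, the complex I gene with the highest mean, passed no test: it had 289 and 372 CPM in LIF_2i, 440 and 280 in rosette_LIM, then 292 and 279 in primed_4d. The ranges of the 3 states overlapped. Ndufs5 had 0 UMIs in each of the 6 libraries, which allows up to 0.384 to 0.642 CPM (3 counts per library, counting error only); the sources used here do not say how reads that match several places were counted.

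The assembly factors build complex I and are not part of it. Ndufaf1 had 27.1 and 30.7 CPM in LIF_2i, 23.8 and 31.0 in rosette_LIM, then 17.9 and 19.7 in primed_4d. It was called lower in primed_4d against both (-0.62 ± 0.18 and -0.54 ± 0.18, edgeR adjusted p = 0.0118 and 0.0304). Ndufaf5, a hydroxylase of a core subunit, was lower than in LIF_2i (-0.54 ± 0.18, edgeR adjusted p = 0.0276), and its difference from rosette_LIM was -0.23 ± 0.19 (edgeR adjusted p = 0.355). Ndufaf7, a methyltransferase of a core subunit, had 22.0 and 30.9 CPM in LIF_2i, 23.4 and 23.98 in rosette_LIM, then 31.2 and 36.1 in primed_4d (0.50 ± 0.18, edgeR adjusted p = 0.0404). Ndufaf4, the most abundant of the 7, passed no test, with 58.1 and 63.0, 52.8 and 45.2, and 57.8 and 66.2 CPM. The calls of Ndufaf1, Ndufaf5 and Ndufaf7 were lost with DESeq2 and without either LIF_2i library.

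Complex II is the one complex with no mitochondrially encoded subunit, and it also works in the tricarboxylic acid cycle. Sdhb, its iron-sulphur subunit, was at 130 and 144 CPM in LIF_2i, 204 and 185 in rosette_LIM, then 137 and 118 in primed_4d. The rosette_LIM libraries stood above the other 4, and LIF_2i and primed_4d overlapped. The rise from LIF_2i was 0.50 ± 0.12 (edgeR adjusted p = 0.0223) and the fall to primed_4d -0.61 ± 0.12 (edgeR adjusted p = 0.00124). The fall kept its call in all 14 other settings; the rise lost it with DESeq2, without the line block, and without the R1 or IB10 LIF_2i or the R1 rosette_LIM library. Sdha, the flavoprotein that oxidises succinate, stayed between 147 and 179 CPM and passed no test. The membrane anchors differed: Sdhc (146 and 126, 161 and 138, 108 and 132 CPM) passed none, and Sdhd (76.0 and 77.6, 72.8 and 67.1, 65.9 and 51.6 CPM) was lower in primed_4d than in LIF_2i (-0.39 ± 0.14, edgeR adjusted p = 0.0345), a call lost with DESeq2, without the line block and without either LIF_2i library or IB10 primed_4d.

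Complex III genes moved in both directions in primed_4d. Uqcr10, a small subunit, had 241 and 257 CPM in LIF_2i, 270 and 256 in rosette_LIM, then 181 and 156 in primed_4d. Its primed_4d libraries were the lowest 2 of 6 (-0.57 ± 0.11 against LIF_2i and -0.64 ± 0.11 against rosette_LIM, edgeR adjusted p = 0.00124 and 0.000516), the first of these calls being lost without IB10 LIF_2i. Uqcrh, the hinge protein that helps cytochrome c dock, had 192 and 187, 185 and 177, and 141 and 124 CPM and was lower against both, with the call against LIF_2i lost without IB10 LIF_2i and that against rosette_LIM lost without IB10 primed_4d. Uqcrfs1, the Rieske iron-sulphur protein at the catalytic centre, went the other way: 144 and 147 CPM, 166 and 151, and 205 and 185, with primed_4d highest in both lines (0.42 ± 0.11 against LIF_2i, edgeR adjusted p = 0.00761, lost without either LIF_2i library or R1 primed_4d). Its rise over rosette_LIM was 0.30 ± 0.11 (edgeR adjusted p = 0.0468) and was lost under 9 of 14 other settings. Uqcrb and Uqcr11 were lower than in rosette_LIM (-0.42 ± 0.10 and -0.41 ± 0.12; Uqcr11 lost the call with DESeq2 and without R1 LIF_2i, IB10 rosette_LIM or IB10 primed_4d), and the core protein Uqcrc1 was lower than in LIF_2i (-0.28 ± 0.10, edgeR adjusted p = 0.0497, lost under 9 of 14 other settings). Uqcrc2 and Uqcrq, the complex III gene with the highest mean (328 and 370, 378 and 398, 369 and 332 CPM), passed no test.

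Complex IV held the largest called change of the 88 genes. Cox7a1 (chr7:30184144-30186078, plus strand, GRCm38) is the isoform of subunit 7a that is typical of heart and skeletal muscle. It was at 32.3 and 24.7 CPM in LIF_2i, 49.5 and 33.9 in rosette_LIM, then 8.54 and 5.67 in primed_4d. These came from 226 and 193, 285 and 174, and 40 and 30 UMIs. Both primed_4d libraries lay far under the rest, with R1 above IB10 in every state. It was 4.03-fold lower in primed_4d than in LIF_2i (-2.01 ± 0.20, edgeR adjusted p = 2.37e-06) and 5.86-fold lower than in rosette_LIM (-2.55 ± 0.20, edgeR adjusted p = 2.29e-07). The change from LIF_2i to rosette_LIM was 0.54 ± 0.16 and did not pass (edgeR adjusted p = 0.0651).

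Cox5a (chr9:57521274-57532426, plus strand), a subunit on the matrix side, had the next largest fall against rosette_LIM. Its level was 711 and 702 CPM in LIF_2i, 803 and 846 in rosette_LIM, then 385 and 390 in primed_4d. The primed_4d libraries did not overlap the others, with a change of -0.87 ± 0.10 against LIF_2i (edgeR adjusted p = 8.7e-06) and -1.09 ± 0.10 against rosette_LIM (edgeR adjusted p = 1.09e-06). Cox5b, which also faces the matrix, passed no test (319 and 356, 395 and 410, 410 and 352 CPM).

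Cox6b1, which lies over the cytochrome c side of the complex, fell in primed_4d from 330 and 329 CPM in LIF_2i and 327 and 279 in rosette_LIM to 214 and 202 (-0.66 ± 0.11 and -0.54 ± 0.11, edgeR adjusted p = 0.000229 and 0.00137). Cox7a2, the widely expressed isoform of subunit 7a, had 220 and 214, 243 and 236, and 173 and 153 CPM and was lower against both, though the call against LIF_2i was lost without either LIF_2i library and without IB10 primed_4d. Cox4i1, Cox6a1, Cox7c and Cox8a were lower than in rosette_LIM, by 0.35 to 0.48 on the log2 scale, and not called against LIF_2i. Of these, Cox6a1 kept its call in all 14 other settings, and Cox4i1 and Cox7c lost it with DESeq2 and without R1 LIF_2i, IB10 rosette_LIM or IB10 primed_4d (Cox4i1 also without IB10 LIF_2i and without the line block). Cox8a, the complex IV gene with the highest mean, had 673 and 718, 786 and 734, and 646 and 545 CPM and lost its call only without the IB10 primed_4d library. Cox7c, with 113 and 112, 136 and 171, and 124 and 95.1 CPM, overlapped between LIF_2i and primed_4d.

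The higher genes of complex IV were few. Cox7a2l, a factor that joins complexes III and IV into supercomplexes, had 151 and 170 CPM, 142 and 157, and 200 and 188, with both primed_4d libraries highest. It passed against rosette_LIM (0.38 ± 0.12, edgeR adjusted p = 0.0189) and not against LIF_2i (0.27 ± 0.11, edgeR adjusted p = 0.073). Ndufa4 was higher than in LIF_2i (248 and 325 CPM to 336 and 381; 0.33 ± 0.11, edgeR adjusted p = 0.0257), with R1 primed_4d close to IB10 LIF_2i. Cox7b2, a low isoform of subunit 7b, had 1.71 and 1.66, 1.91 and 1.95, and 4.48 and 4.35 CPM (1.38 ± 0.44 against LIF_2i, edgeR adjusted p = 0.0243). The Cox7a2l, Ndufa4 and Cox7b2 calls were all lost with DESeq2 and without either LIF_2i library. Cox7b and Cox6c passed no test.

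**Figure D4:**
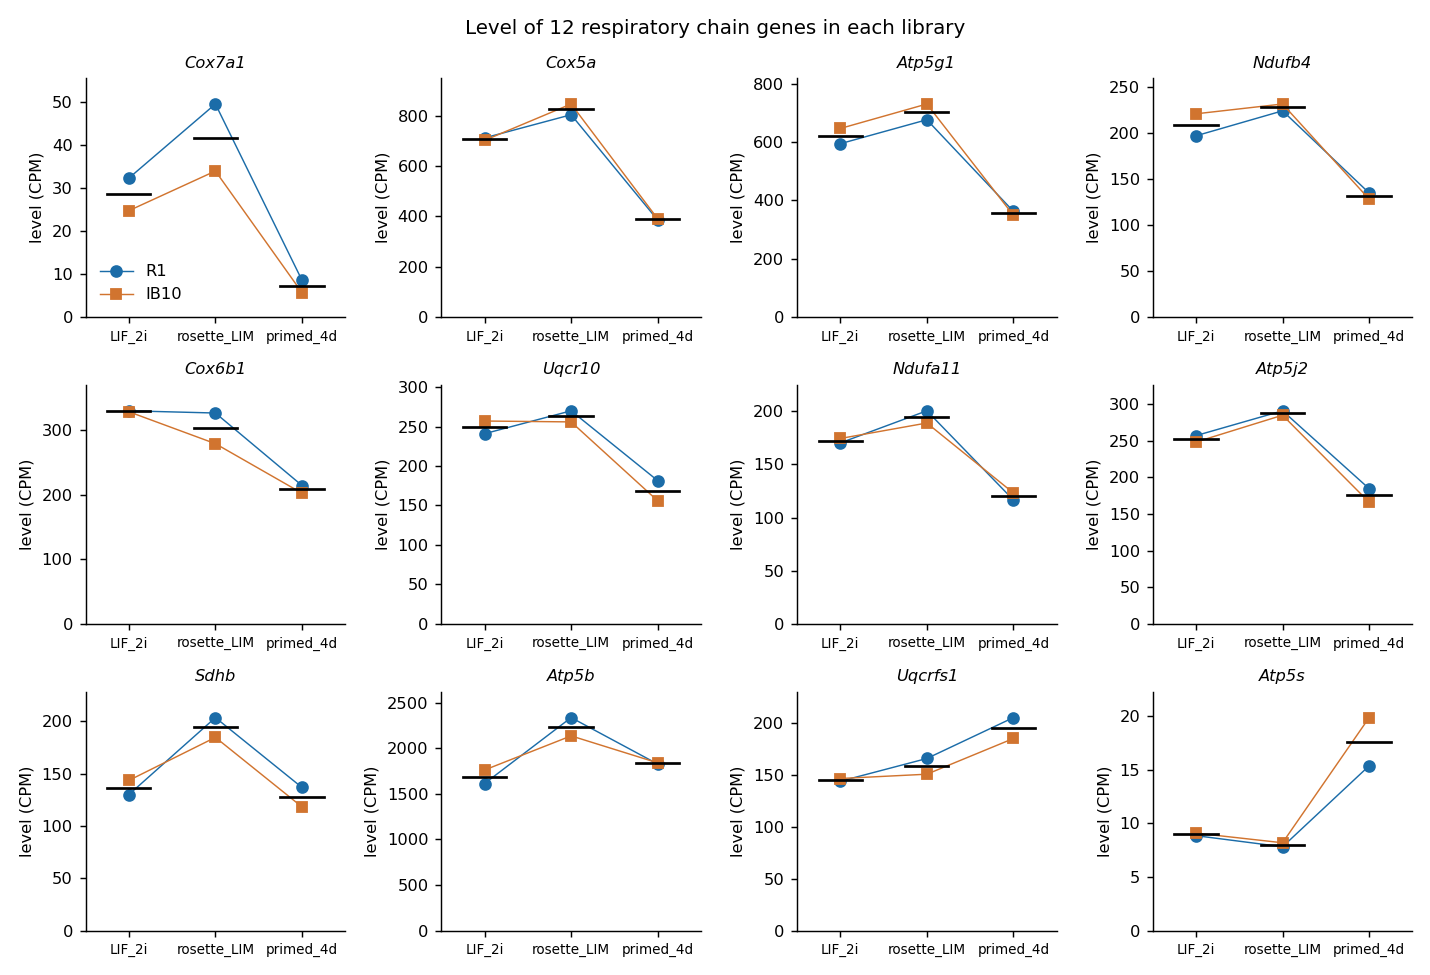
Level (CPM, linear axis from 0) of 12 genes in every library; circles are R1, squares IB10, thin lines join the libraries of a line and black bars are means of 2 libraries. Cox7a1, Cox5a, Atp5g1 and Ndufb4 are lowest in both primed_4d libraries, Sdhb and Atp5b peak in rosette_LIM, and Uqcrfs1 and Atp5s are highest in primed_4d.

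Complex V joins a catalytic F1 head to a membrane part, and its genes were grouped by these roles after their values were seen. The 6 genes grouped with F1 include Atp5o, which is a stalk subunit and was not called. Of these 6 genes 1 was lower in primed_4d than in rosette_LIM. Of the 9 other membrane and stalk subunits 5 were, where 19.0% of all genes were. The count of the first group is near that background, and the difference between the groups was not tested. Atp5b, the catalytic beta subunit and the most abundant gene of the set, was at 1612 and 1760 CPM in LIF_2i, 2335 and 2134 in rosette_LIM, then 1825 and 1839 in primed_4d. Rosette_LIM was highest in both lines, with a rise of 0.41 ± 0.10 over LIF_2i (edgeR adjusted p = 0.0243) and a fall of -0.29 ± 0.10 to primed_4d (edgeR adjusted p = 0.0331). Both calls were lost without the line block and without either LIF_2i library or R1 rosette_LIM, and the fall also with DESeq2 and without either primed_4d library. Atp5a1, the alpha subunit, passed no test (853 and 896, 909 and 1022, 916 and 1005 CPM). Atp5e, the epsilon subunit, was higher in primed_4d than in LIF_2i (147 and 143 to 197 and 175 CPM; 0.36 ± 0.11, edgeR adjusted p = 0.02), a call lost with DESeq2 and without either LIF_2i library or R1 primed_4d.

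Subunit c forms the rotor ring of the membrane part and is made from 3 genes, Atp5g1, Atp5g2 and Atp5g3, whose mature proteins are the same. Atp5g1 had 595 and 647 CPM in LIF_2i, 677 and 731 in rosette_LIM, then 363 and 349 in primed_4d. Its primed_4d libraries were far below the others (-0.80 ± 0.10 against LIF_2i and -0.98 ± 0.10 against rosette_LIM, edgeR adjusted p = 2.51e-05 and 4.17e-06). Atp5g2 had 561 and 563, 641 and 608, and 660 and 637 CPM, and Atp5g3 769 and 775, 837 and 822, and 744 and 786, and neither passed a test. The other membrane and stalk genes lower than in rosette_LIM were Atp5j2 (subunit f, -0.72 ± 0.11), Atp5k (subunit e, -0.62 ± 0.11), Atp5f1 (-0.61 ± 0.15) and Atp5h (-0.36 ± 0.11, lost without the line block and without IB10 primed_4d). Atp5f1 had 1 high library, with 143 and 149 CPM in LIF_2i, 159 and 247 in rosette_LIM, then 133 and 129 in primed_4d, and its call was lost without IB10 rosette_LIM or IB10 primed_4d. Atp5sl, which carries the prefix, is not regarded as a structural subunit, though it stays in the counts and sums of complex V. The same holds for Atp5s. It rose in primed_4d from 8.85 and 9.09 CPM in LIF_2i and 7.82 and 8.19 in rosette_LIM to 15.4 and 19.9 (0.97 ± 0.23 and 1.13 ± 0.24, edgeR adjusted p = 0.00409 and 0.00212), and the call against LIF_2i was lost without IB10 LIF_2i or IB10 primed_4d.

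The upstream regions of the 3 subunit c genes are shown because their transcripts diverged, with those of Cox7a1, the most changed gene, and Sdhb, which was called higher in rosette_LIM than in both other states. The sequences are RefSeq's on GRCm38.p6, 250 bases before the gene's start and 20 after it, 5' to 3' along the gene's strand. Capitals mark matches to the 5 motifs searched on both strands: CCGGAAG (ETS factors such as GABP), GCATGCGC (NRF1), AAGATGGC (YY1), TCAAGGTCA (the ERR family) and CACGTG (the E-box). Atp5g1 lies at chr11:96075612-96075881 (minus strand), Atp5g2 at chr15:102671028-102671297 (minus strand) and Atp5g3 at chr2:73911307-73911576 (minus strand). Cox7a1 lies at chr7:30183921-30184190 (plus strand) and Sdhb at chr4:140961021-140961290 (plus strand).
Atp5g1: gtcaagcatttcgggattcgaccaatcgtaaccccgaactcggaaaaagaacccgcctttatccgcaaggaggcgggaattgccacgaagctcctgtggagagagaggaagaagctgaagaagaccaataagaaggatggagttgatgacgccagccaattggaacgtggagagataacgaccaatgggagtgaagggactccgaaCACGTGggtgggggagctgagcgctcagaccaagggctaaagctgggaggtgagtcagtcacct
Atp5g2: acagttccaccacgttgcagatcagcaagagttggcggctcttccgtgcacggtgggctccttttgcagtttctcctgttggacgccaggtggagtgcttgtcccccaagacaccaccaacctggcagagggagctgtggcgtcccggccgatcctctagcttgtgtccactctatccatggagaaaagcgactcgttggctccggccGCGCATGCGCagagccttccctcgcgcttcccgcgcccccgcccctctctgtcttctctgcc
Atp5g3: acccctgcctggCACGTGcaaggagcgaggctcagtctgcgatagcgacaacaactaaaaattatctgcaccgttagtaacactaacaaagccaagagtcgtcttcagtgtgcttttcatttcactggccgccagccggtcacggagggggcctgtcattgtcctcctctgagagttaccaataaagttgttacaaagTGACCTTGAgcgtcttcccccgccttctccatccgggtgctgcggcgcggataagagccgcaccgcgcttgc
Cox7a1: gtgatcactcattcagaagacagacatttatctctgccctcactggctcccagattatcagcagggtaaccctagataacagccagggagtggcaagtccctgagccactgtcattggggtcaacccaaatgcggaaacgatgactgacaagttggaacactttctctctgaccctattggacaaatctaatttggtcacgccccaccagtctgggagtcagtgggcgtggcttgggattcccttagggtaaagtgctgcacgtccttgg
Sdhb: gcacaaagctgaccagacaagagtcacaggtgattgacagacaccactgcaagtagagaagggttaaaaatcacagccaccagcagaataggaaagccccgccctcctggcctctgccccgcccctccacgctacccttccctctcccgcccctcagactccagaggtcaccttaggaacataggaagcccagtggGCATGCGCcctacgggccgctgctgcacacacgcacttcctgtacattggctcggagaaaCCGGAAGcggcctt
Atp5g1 holds an E-box that begins 44 bases before the start. Atp5g2 holds GCATGCGC and its reverse, overlapping, from 42 bases before the start. That RefSeq start lies inside the GENCODE M21 gene, which spans chr15:102662864-102672352 on the minus strand. Atp5g3 holds an ERR match on the reverse strand 52 bases before the start and an E-box 238 bases before it. In Sdhb the NRF1 letters begin 54 bases before the start and the ETS letters 6 bases after it. Cox7a1 holds none of the 5 motifs, and its 300-base window has 7 CpG dinucleotides, against 15 to 21 in the other 4 genes. A match describes the letters and is no measured site.

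Of the 91 genes, 72 had RefSeq windows of 300 bases (250 before the start and 50 after), 77 windows in all. The ETS letters stood in 17 windows (22.1%) against 8.86% of all 32851 windows, the NRF1 letters in 12 (15.6%) against 2.71%, and the YY1 letters in 9 (11.7%) against 2.75%. The ERR letters stood in 2 (2.60%) against 0.423%, and the E-box in 6 (7.79%) against 7.15%. The genes' windows were also richer in G and C (median 57.7% against 52.7%) and in CpG (19 against 7). Of 29 genes with a window that were lower in primed_4d in either comparison, 10 held the ETS letters, 8 the NRF1, 4 the YY1, 1 the ERR and 1 the E-box letters. Of the other 43, 7, 4, 5, 1 and 4 did, in the same order. Of the 29, Sdhb, Atp5k, Cox6a1 and Uqcr11 held both the ETS and the NRF1 letters. These shares are descriptions, with no test.

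Where 1 subunit is made from several genes, the shares of the genes in primed_4d lay outside their range in the other states for 3 sets. These shares are descriptions, with no test. Atp5g1 gave 30.9% and 32.6% of subunit c transcripts in LIF_2i, 31.4% and 33.8% in rosette_LIM, then 20.5% and 19.7% in primed_4d. The exact 95% binomial intervals, which cover counting error only, reached from 18.9% to 21.4% in primed_4d and from 30.1% to 34.7% elsewhere. Atp5g2 gave 37.4% and 36.0% in primed_4d against 28.1% to 29.8% elsewhere, and Atp5g3 42.1% and 44.4% against 38.0% to 39.95%. The 3 genes together had 1924 and 1985 CPM in LIF_2i, 2155 and 2160 in rosette_LIM, then 1767 and 1773 in primed_4d.

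In the Cox7a1, Cox7a2 and Cox7a2l set, Cox7a1 gave 7.99% and 6.04% in LIF_2i, 11.4% and 7.95% in rosette_LIM, then 2.24% and 1.64% in primed_4d. Cox7a2l gave 37.5% and 41.6%, 32.7% and 36.7%, and 52.3% and 54.2%, above Cox7a2 (45.4% and 44.2%) in both primed_4d libraries. For subunit 6b, the share of Cox6b2, known as the testis isoform, was 19.7% and 18.1%, 21.1% and 20.7%, and 29.6% and 25.2%. Its level did not pass a test in any comparison of states (81.1 and 72.5, 87.2 and 72.7, 90.3 and 68.1 CPM), while that of Cox6b1 fell. Subunits 4, 6a and 8 were made almost wholly from 1 gene, Cox4i1, Cox6a1 and Cox8a, each at 99.4% to 100% in all libraries. Cox4i2 (3, 5, 4, 1, 4 and 0 UMIs over the libraries in the order used above) and Cox8c (1, 3, 6, 5, 1 and 3) were too low to test. Ndufa4l2 was 0.353% to 2.69% of the Ndufa4 pair and passed no test.

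**Figure D5:**
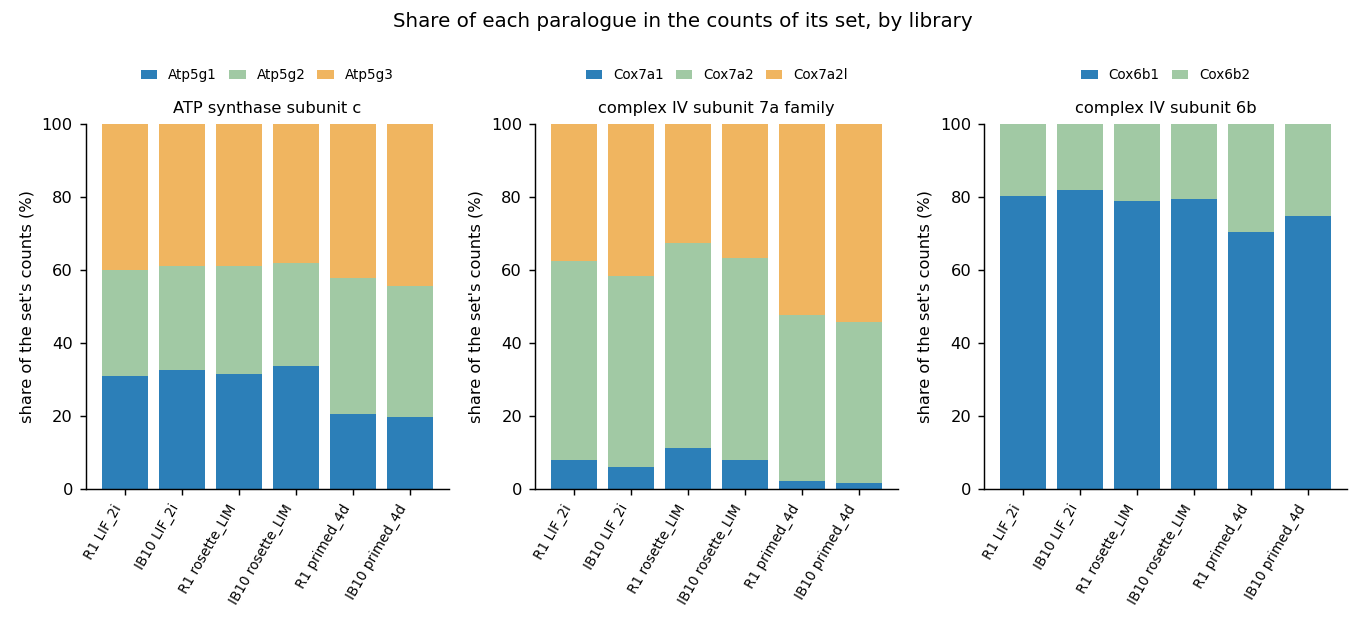
Share (%, bars stacked to 100) of each paralogue in the UMIs of its set, by library. In primed_4d Atp5g1 is at 20.5% and 19.7%, Cox7a1 at 2.24% and 1.64% and Cox6b2 at 29.6% and 25.2%.

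Between the lines, over the 3 states, edgeR called 0 of 88 genes higher and 0 lower in IB10 than in R1, where 0.240% and 0.504% of all genes were. At an unadjusted p under 0.05, 1 was higher and 6 lower; DESeq2 and limma called 0. The lowest estimates were Ndufa4l2 (-1.07 ± 0.39, edgeR adjusted p = 0.285), Cox7a1 (-0.49 ± 0.15, edgeR adjusted p = 0.176) and Ndufa13 (-0.34 ± 0.11, edgeR adjusted p = 0.19). The count of lower genes was 2 without either rosette_LIM library and 1 with no filter on low counts. Ndufa13, Ndufb7 (-0.27 ± 0.10) and Cox4i1 (-0.22 ± 0.10) lie on chromosome 8, where the median of all 664 tested genes was -0.27, -0.27 and -0.34 in LIF_2i, rosette_LIM and primed_4d, against 0.01 to 0.02 for genes elsewhere. The gene higher at an unadjusted p under 0.05 was Ndufa4 (0.24 ± 0.09, edgeR adjusted p = 0.295), on chromosome 6, where the median of 563 genes was 0.11, 0.07 and 0.05. The 4 members there, Ndufa4, Ndufa5, Ndufa9 and Ndufb2, had medians of 0.26, 0.09 and 0.04. Cox4i1 was at 457 and 385 CPM in LIF_2i, 485 and 510 in rosette_LIM, then 456 and 321 in primed_4d. With 1 library for each line and state, a difference between the lines in their response cannot be tested. IB10 was at a higher passage number than R1 in each state, so line and passage cannot be told apart.

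The 13 mitochondrially encoded subunits, partners of complexes I, III, IV and V, were many times as abundant, with 75972 and 87172 CPM as the lowest and highest sum in LIF_2i, 76139 and 93471 in rosette_LIM, then 66352 and 73202 in primed_4d. Between rosette_LIM and LIF_2i edgeR called 0 of 13, as did DESeq2 and limma, with 3 higher at an unadjusted p under 0.05. In IB10 against R1 all 3 tools called 0 as well. There 9 of 13 were higher in IB10 at an unadjusted p under 0.05, against 557 of all 12098 genes, with a median of 0.20. In primed_4d, edgeR called 4 of 13 lower than in LIF_2i (DESeq2 2, limma 3), where 19.6% of all genes were. It called 5 of 13 lower than in rosette_LIM (DESeq2 4, limma 5), where 19.0% of all genes were. mtNd1, of complex I, was at 8718 and 10544 CPM in LIF_2i, 9259 and 10355 in rosette_LIM, then 6707 and 7491 in primed_4d (-0.47 ± 0.09 against rosette_LIM, edgeR adjusted p = 0.000875). mtCo2, of complex IV, fell as well (-0.39 ± 0.09, edgeR adjusted p = 0.00317), and mtNd2, mtNd4, mtNd5 and mtCo3 did not pass.

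The further lists are read against the shares of all genes called in primed_4d, which were 19.0% lower and 17.1% higher against rosette_LIM and 19.6% and 18.3% against LIF_2i. Of 19 assembly factors of complex IV, 4 were lower and 2 higher than in rosette_LIM (DESeq2 3 and 2), and 2 and 2 against LIF_2i (DESeq2 1 and 0), which is near or under those shares. Coa5 was lower in rosette_LIM than in LIF_2i (-0.48 ± 0.13, edgeR adjusted p = 0.0443), where DESeq2 called 0. Cox17, the copper chaperone that supplies the complex, had 238 and 267 CPM in LIF_2i, 306 and 286 in rosette_LIM, then 172 and 210 in primed_4d (-0.64 ± 0.12 against rosette_LIM, edgeR adjusted p = 0.000719). Pet100 and Cox18 were lower too (-0.65 ± 0.15 and -0.72 ± 0.17), and Cox10, which makes heme O, and Lrpprc, which stabilises mitochondrial mRNA, were higher (0.69 ± 0.15 and 0.63 ± 0.12). Among 5 complex V factors, the ATPase inhibitor Atpif1 was higher in rosette_LIM than in LIF_2i (229 ± 6.0 to 299.6 ± 1.2 CPM; 0.39 ± 0.10, edgeR adjusted p = 0.0429), where DESeq2 called 0, and no other passed. Of 7 further complex I factors, Ecsit was higher in primed_4d against both (0.66 ± 0.14 and 0.75 ± 0.14), Nubpl was higher against rosette_LIM and Acad9 lower against LIF_2i. DESeq2 and limma each called 1 of the 7 higher against rosette_LIM, in place of 2, and DESeq2 called 0 lower against LIF_2i. The list of complex II factors had 2 tested genes, with 0 calls by edgeR, DESeq2 or limma and 0 at an unadjusted p under 0.05 between states, and that of complex III had 2, with Ttc19 lower in primed_4d than in LIF_2i (-0.73 ± 0.24), where DESeq2 called 0.

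Among the tricarboxylic acid cycle, electron carrier and coenzyme Q genes, Idh2, the NADP-dependent isocitrate dehydrogenase of mitochondria, had the largest fall. It was at 97.4 and 83.5 CPM in LIF_2i, 89.97 and 122 in rosette_LIM, then 28.2 and 37.4 in primed_4d (-1.47 ± 0.17 and -1.68 ± 0.17, edgeR adjusted p = 9.47e-06 and 3.09e-06). Of 14 tricarboxylic acid cycle genes, 4 were lower and 2 higher than in rosette_LIM (DESeq2 4 and 2), and 3 and 1 than in LIF_2i (DESeq2 2 and 1), where the shares of all genes stand above; except for the 4, these counts are near or under them. Citrate synthase (Cs) was lower against both (-0.35 ± 0.12 and -0.41 ± 0.12) and Suclg1 higher (0.44 ± 0.11 and 0.48 ± 0.11). Among 17 electron carrier and coenzyme Q genes, 2 were lower and 1 higher than in rosette_LIM, under the shares of all genes, with the electron transfer flavoprotein subunit Etfb lower (81.1 and 104, 95.4 and 133, 60.2 and 58.1 CPM; -0.93 ± 0.14, edgeR adjusted p = 0.000164). Cytochrome c (Cycs) passed no test, at 438 and 500, 507 and 424, and 530.1 and 532 CPM. Of 76 mitochondrial ribosomal protein genes, 10 were lower and 13 higher than in rosette_LIM with a median of 0.00, and 9 and 9 than in LIF_2i, at or under the shares of all genes. DESeq2 called 3 lower and 7 higher, and 5 and 2. Mrpl16 had the largest rise over rosette_LIM (1.07 ± 0.16). It was also the 1 gene lower in rosette_LIM than in LIF_2i (-0.69 ± 0.16), where DESeq2 called 0. The tricarboxylic acid cycle and carrier lists had 0 calls there by edgeR, DESeq2 and limma, with 1 and 5 genes at an unadjusted p under 0.05.

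Of 16 tested regulators of respiratory genes, 3 were lower and 4 higher in primed_4d than in rosette_LIM, and 3 and 3 than in LIF_2i, near the shares of all genes except for the 4. DESeq2 called 2 lower and 2 higher in each comparison. Between rosette_LIM and LIF_2i edgeR, DESeq2 and limma called 0, with 1 higher and 4 lower at an unadjusted p under 0.05. Esrrb, a naive factor of the ERR family, fell from 413 and 491 CPM in LIF_2i and 340 and 396 in rosette_LIM to 41.2 and 59.9 (-3.17 ± 0.13 and -2.87 ± 0.12). Gabpa, the DNA-binding subunit of the ETS factor GABP, had 86.2 and 87.1, 88.6 and 87.0, and 64.0 and 64.9 CPM (-0.43 ± 0.12 and -0.45 ± 0.13, edgeR adjusted p = 0.0143 and 0.0126). Stat3 was lower against both (-0.64 ± 0.15 and -0.68 ± 0.15). Lin28a, an RNA-binding protein, rose to 327 and 288 CPM from 79.1 and 57.9 in LIF_2i and 35.4 and 57.9 in rosette_LIM (2.17 ± 0.19 and 2.72 ± 0.20), and Myc rose by 1.49 ± 0.18 and 2.19 ± 0.20. Tfam, which packages and transcribes mitochondrial DNA, was higher against both (0.39 ± 0.12 and 0.36 ± 0.12), and Ppargc1b, at 6.16 CPM in primed_4d and 2.32 in rosette_LIM, was higher than in rosette_LIM (1.40 ± 0.42, edgeR adjusted p = 0.018). Nrf1, Yy1 and Esrra passed no test, and Ppargc1a had 0 UMIs in each of the 6 libraries.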

How the data were processed

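Single-cell transcripts of 6 libraries (R1 and IB10 in 3 states) were analysed. Each well's deposited values are expected counts, made by the authors from UMIs. BWA and the mm10 (GRCm38) build are named in the submitters' processing notes; for versions, annotation and multiple matches, nothing is stated in the sources used. All 1296 distinct nonzero values equalled, within 0.005, a collision formula for whole UMIs out of 4096 (6 bases), so they are UMI counts corrected for collisions and not scaled for depth. The 91 ERCC rows (1.75% of counts) stayed out of library sizes.

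The 188 wells of a library were added up and the sums rounded. edgeR 4.0.16 (R 4.3.3) used its quasi-likelihood test with TMM factors, filterByExpr (minimum count 10) and a design with line plus condition over 6 libraries (common dispersion 0.0106), two-sided, with Benjamini-Hochberg adjustment over 12098 genes and a threshold of 0.05. No label states separate cultures, so the p-values cover only the spread among these libraries, which may be technical; an exact permutation test of 2 against 2 cannot go below 0.333. The line served as the block, since equal replicate numbers mark 1 line; the differences between lines correlated across genes by 0.0903 to 0.205 between states. The fits were tested on simulated data. Promoter positions are from RefSeq on GRCm38.p6 and gene positions from GENCODE M21.

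Alternatives were DESeq2 1.42.0, its size factors, limma 3.58.1 on log2(CPM + 5), no TMM factors, no filter, no block, other sets of wells and leaving out each library. The members and lists were chosen with earlier results of these data known. Genes were named by rule: the 10 largest called changes per comparison, the highest gene per complex, paralogue sets, core subunits, and listed genes called at 2-fold or more. Other genes named were chosen after their values were seen. Genes with near-identical processed pseudogenes may have lost or gained reads. Some results for single genes are not reported here.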

Additional observations from a re-analysis of the deposited data

Results flagged for a closer look

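Cox6a2, the muscle isoform of complex IV subunit 6a, moved in opposite directions in the lines, and the difference was not tested, since each line has 1 library per state. It had 2 and 9 UMIs in LIF_2i (R1 and IB10), 21 and 1 in rosette_LIM, then 1 and 10 in primed_4d. From LIF_2i to rosette_LIM, with 0.5 CPM added, the log2 change was 2.40 in R1 and -1.25 in IB10, an IB10 minus R1 difference of -3.65. From rosette_LIM to primed_4d it was -2.54 in R1 and 1.78 in IB10, a difference of 4.32. Its share of subunit 6a transcripts was 0.622% at most.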

How the results depend on the processing

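Of 59 calls of a gene in a comparison, 24 held in all 14 other settings run, and none reversed. Calls lost numbered 19 with DESeq2, 14 with no replicate block, 0 to 2 with limma, other scaling, no filter or other wells, and 7 to 27 with 1 library left out. Gene counts that moved by over 1.5 times were, for rosette_LIM against LIF_2i higher (2), 0 with no block, 1 with DESeq2 and 4 with no filter; for primed_4d against LIF_2i higher (6), 3 with DESeq2; for primed_4d against rosette_LIM higher (4), 2 with no block and 1 with DESeq2; and for IB10 against R1 lower (0), 1 with no filter. With each library left out in turn these ran from 0 to 8, 0 to 8, 1 to 3 and 0 to 2; the lower counts of primed_4d ran from 6 to 21 against LIF_2i and 19 to 27 against rosette_LIM. The cause was not tested; leaving out a library also leaves fewer samples. The block changed no other count by over 1.5 times. With equal weight for each well, the summed level of the genes was 22271 CPM in rosette_LIM and 18766 in primed_4d, in place of 22609 and 18996, and their order stayed. Sdhb and Cox7c, not called in primed_4d against LIF_2i (-0.11 and -0.04), ran from -0.26 to 0.05 and from -0.32 to 0.23 with 1 library left out: Sdhb was 0.049 without IB10 LIF_2i and 0.0034 without IB10 primed_4d, and Cox7c was 0.23 without IB10 primed_4d. Depth limits Cox4i2, Cox8c, Cox6a2 and Ndufs5.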
